A study of Drosophila melanogaster with 3 samples.

Results

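In a ChIP-seq study of the Drosophila melanogaster protein CG9609, the authors called 716 peaks on the X chromosome and 3031 on the autosomes reproducible, and 378 of the X peaks had their summit away from protein-coding promoters. They were chosen by position only. A summit counted as a member when it lay on X and more than 500 bp from the transcription start site (TSS) of every protein-coding transcript in the Ensembl annotation. The other 338 X peaks were promoter peaks by the same rule, and 1349 of the 3031 autosomal peaks lay outside promoters. At the edge of the rule, the nearest summit left out lay 494 bp from the TSS of ph-p and was the 11th strongest of the set with a signal of 1528, and the nearest summit kept lay 501 bp from CG17896, at rank 51 with a signal of 810. The label "outside promoters" refers to protein-coding genes: 18 members lay within 500 bp of a TSS of some other annotated gene.

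The chromatin came from whole Drosophila melanogaster embryos, 0 to 24 h old and of both sexes, of a transgenic line in which the C terminus of CG9609 carries green fluorescent protein (GFP). Fragments sheared by sonication were recovered through the GFP tag with an anti-GFP antibody. The design had 1 group, CG9609-GFP, with biological replicates 1 to 3 as the labels number them. No second line, condition or stage was part of the design, and whether the tagged copy replaced the native protein is not given in the sources used here, so every value is that of the GFP fusion averaged over all cells and ages of the embryo.

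Peaks away from promoters often mark enhancers or insulators, the DNA elements through which transcription factors act on genes from a distance, and many fly enhancers sit in introns. The fly X chromosome is present in a single copy in males, and the MSL complex with the roX1 and roX2 RNAs raises its transcription there. Embryos of both sexes were pooled, so the X was present in fewer copies than an autosome in this chromatin, and a peak cannot be assigned to males or females. The gene for CG9609 itself lies on X.

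The sequences under the strongest members are shown for the stretches of A and T that lie in them, which the GC values further on measure over all members. The 6 strongest members whose window lay outside UTRs are given as windows of 101 bases centred on the summit, on the forward strand of dm6 as held by RefSeq, with every run of at least 6 A or T letters in capitals.
lncRNA:Vinr, chrX:12751404-12751504: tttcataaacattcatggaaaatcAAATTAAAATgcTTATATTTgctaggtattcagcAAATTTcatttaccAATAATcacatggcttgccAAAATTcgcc
CG32772, chrX:4910315-4910415: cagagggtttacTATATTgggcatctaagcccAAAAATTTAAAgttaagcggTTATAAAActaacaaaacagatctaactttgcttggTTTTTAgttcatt
lncRNA:CR44619, chrX:12752307-12752407: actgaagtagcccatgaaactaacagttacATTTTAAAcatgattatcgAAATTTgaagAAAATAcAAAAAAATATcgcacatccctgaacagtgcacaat
Tlk, chrX:3742176-3742276: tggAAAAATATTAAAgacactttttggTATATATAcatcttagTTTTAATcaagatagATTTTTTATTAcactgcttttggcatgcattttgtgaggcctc
CG3726, chrX:5918846-5918946: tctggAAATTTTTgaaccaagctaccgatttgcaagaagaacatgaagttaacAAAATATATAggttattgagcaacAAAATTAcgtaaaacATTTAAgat
Raf, chrX:2297678-2297778: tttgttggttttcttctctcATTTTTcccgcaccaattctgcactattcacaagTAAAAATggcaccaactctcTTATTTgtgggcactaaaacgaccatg
A and T made up 60.4 to 71.3% of these windows, and between 19 and 38 of the 101 bases fell in such runs. The window in Raf had the lowest values on both counts.

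A smaller set of members carried the 8 letters AGGTGGCG, the core of the motif of the insulator protein CTCF. The 4 strongest of those outside UTRs are shown as 30 bases on the strand that holds the letters, which are in capitals.
lncRNA:CR43838, chrX:20760525-20760554, forward strand: tgcgccctcatAGGTGGCGctttcatgaga
lncRNA:CR44357, chrX:7242114-7242143, forward strand: aacccaacgccAGGTGGCGctctcatttcc
CG43658, chrX:17532013-17532042, reverse strand: tcgaacactatAGGTGGCGccatcataaac
near sbr, chrX:10832554-10832583, reverse strand: aaattgcagctAGGTGGCGctattaagcta
The last sequence is the only member with the word ATCGATAG, which leads among promoter peaks of the autosomes, here in capitals in an intron of Stt3A, the gene for a subunit of the enzyme that attaches sugar chains to proteins.
Stt3A, chrX:21053309-21053338, reverse strand: cctgctagaatATCGATAGcttgatacacg

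The replicate lists held 29898 to 30000 regions each, background regions included, and no read counts, so the depth behind each peak is unknown. To compare replicates, each list was cut to its strongest regions, equal in number to the peaks of the reproducible set. Among them, X regions outside promoters numbered 357, 372 and 358 in replicates 1, 2 and 3. Replicate 1 stood apart: its autosomal regions outside promoters had a mean GC content of 42.9% at the summit, against 36.1 and 35.6% in replicates 2 and 3. Values without it are given beside the comparisons of replicates in which it lay apart.

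Most members were recovered in the replicates, and strong members nearly always were. The authors thresholded the set on repeatability over these same replicates, so recovery in them is in part built in. A summit within 100 bp among the strongest regions of all 3 replicates was found for 223 of the 378 members (59.0%, 95% Wilson interval 54.0 to 63.8%), of 2 replicates for 96, of 1 for 49 and of none for 10. Over the whole reproducible set that share was 55.4%, so the members stood close to the background. It was 50.9% (48.3 to 53.6%) for autosomal peaks outside promoters and 55.0% (49.7 to 60.2%) for X promoter peaks. Wilson intervals here cover counting error only, and neighbouring peaks share their chromatin. Replicate 1 held 286 members among its strongest regions, replicate 2 held 306 and replicate 3 held 318. Of the strongest 126 members by signal, 125 were found in all 3 replicates, against 87 of the middle 126 and 11 of the weakest 126. The weakest 126, at ranks 2425 to 3731, lay closest to the cut of the replicate lists, so a small shift in rank could put them past it. In the whole replicate lists, 337 members (89.2%) had a region within 100 bp in all 3. That was close to the 87.2% over all peaks of the set and the 87.0% of autosomal peaks outside promoters.

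The signal of the members, a value deposited with the peaks on a scale that is not given in the sources used here, ran from 90.3 to 1403 with a median of 147. Ranks were therefore used for comparisons, with rank 1 the strongest of the set. The median rank was 1821.5 for members and 2074 for autosomal peaks outside promoters. Members made up 12 of the 33 non-promoter peaks among the 100 strongest peaks of the set and 103 of 402 among the 1000 strongest. They were 21.9% of all non-promoter peaks.

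The strongest member of all, with a signal of 1403 and rank 15, had its summit at chrX:12751454 in an exon of the long non-coding RNA gene lncRNA:Vinr, 5137 bp from the TSS of CG4004. It ranked 13, 19 and 15 in replicates 1, 2 and 3. A second strong summit lay 903 bp further along in lncRNA:CR44619, at rank 31 with a signal of 1073, and ranked 33, 22 and 29. The TSS of the non-coding gene lncRNA:CR44619 lay 413 bp from the first summit and 490 bp from the second. Both summits are thus among the 18 members within 500 bp of the TSS of some other annotated gene. Both stayed near the top in every replicate.

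An intron of CG32772, a gene known only by its number, held the next strongest member at rank 18, which ranked 26, 17 and 19 in the replicates. The intronic summit in Tlk, the gene for the Tousled-like kinase of chromatin assembly, had rank 37 and a signal of 944, and ranked 45, 33 and 36. In CG3726, an intronic summit of rank 45 ranked 38, 53 and 45. Each of these 3 lay in an intron of the gene with the nearest TSS, 1263 to 2329 bp away.

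The next members in order of signal included several in introns of genes with known products. Raf, the kinase that relays receptor tyrosine kinase signals to the MAP kinase pathway, held rank 48, and NFAT, the single fly member of the NFAT family of transcription factors, held ranks 54 and 167. The Raf member ranked 34, 57 and 68 in the replicates, and the stronger NFAT member ranked 50, 61 and 54. LPCAT, an acyltransferase of phospholipid synthesis, followed at rank 66, and Zw, which encodes glucose-6-phosphate dehydrogenase, at rank 80. norpA, the phospholipase C of phototransduction, held rank 82 with a signal of 665 and ranked 80, 71 and 90.

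Further down the 25 strongest were Hr4, a nuclear receptor of the ecdysone response (rank 151), schlank, a ceramide synthase (rank 193), mnb, the minibrain kinase (rank 204), and kirre, an immunoglobulin-family receptor of muscle founder cells (rank 228). The kirre member ranked 167, 213 and 454, the weakest replicate rank among the 25. A summit 1907 bp upstream of Atf3, which encodes a bZIP transcription factor, had rank 265. All 25 strongest members, ranks 15 to 271, were found in all 3 replicates, with replicate ranks of 13 to 366, 17 to 389 and 15 to 454. Introns held 18 of these, and 4 were between genes, 2 in non-coding exons and 1 in a 5′ UTR.

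**Figure D1:**
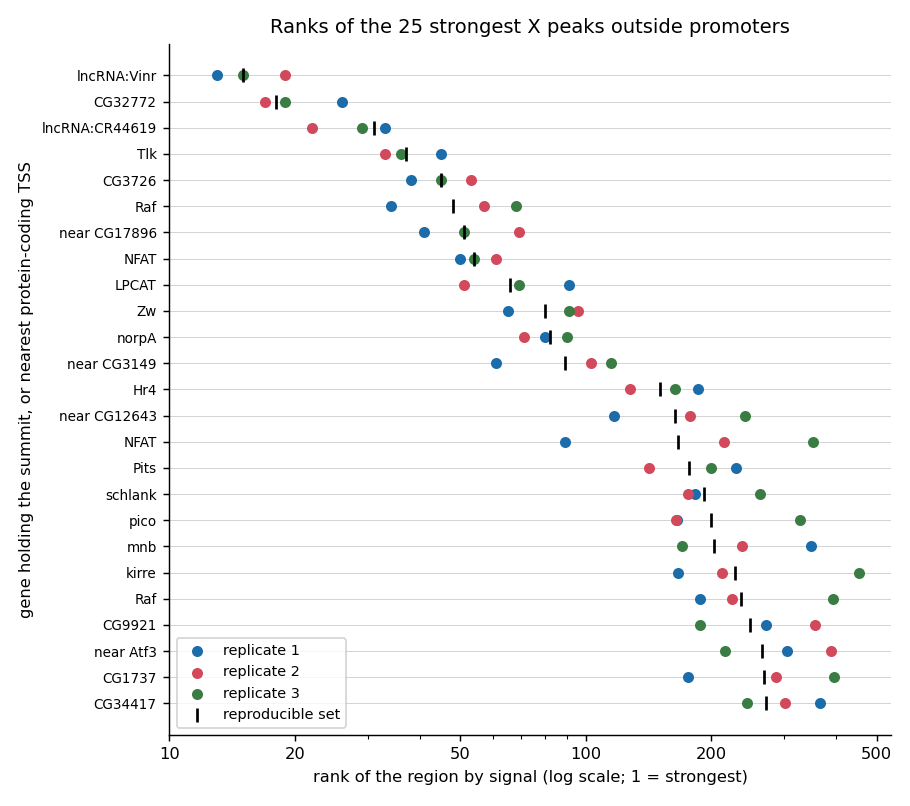
Rank by signal, on a log axis, of the 25 strongest X peaks outside promoters in each of the 3 replicates (coloured points) and in the reproducible set (black bars), 1 row per peak, named by the gene that holds the summit or by the nearest protein-coding TSS. Every peak has a point in every replicate, and the weakest replicate rank is 454.

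Peaks on X lay outside promoters more often than peaks on the autosomes did. In the reproducible set the share was 52.8% on X (Wilson interval 49.1 to 56.4%) and 44.5% on the autosomes (42.7 to 46.3%). Among the strongest regions of replicates 1, 2 and 3 it was 53.6, 52.5 and 51.6% on X, and 51.3, 45.2 and 45.4% on the autosomes. X was higher in all 3 replicates, and replicate 1 differed by least. The difference averaged 5.26 percentage points ± 2.61 (SD, n = 3; exact two-sided sign-flip permutation p = 0.25). That is the smallest p that 3 replicates allow, here and in the other comparisons over replicates, so none of them could pass 0.05. Without replicate 1 the difference was 6.73 points.

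The number of peaks per base gave the same order. Outside promoter windows, the reproducible set held 18.1 peaks per Mb on X and 13.85 per Mb on the autosomes, a ratio of 1.31. In replicates 1, 2 and 3 the ratio was 1.05, 1.26 and 1.20, with a mean of 1.17 ± 0.109 (SD, n = 3; exact permutation p = 0.25) and 1.23 without replicate 1. The direction depended on how deep into the lists the comparison went. With 2 times as many regions taken from each replicate, the mean share difference was -0.450 points and the mean density ratio 0.939. With the strongest 50% of each list they were 11 points and 1.42.

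Introns held a larger share of the members than of their autosomal counterparts. Of the 378 members, introns held 297 (78.6%, 74.2 to 82.4%). Another 54 (14.3%) had no gene around them, 11 were in non-coding exons, 9 in 3′ UTRs, 4 in 5′ UTRs and 3 in coding exons. Autosomal peaks outside promoters were intronic in 62.3% of cases and between genes in 30.2%. Introns also made up more of the bases outside promoters on X, 49.2% against 44.2% on the autosomes.

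In replicates 1, 2 and 3 the intronic share was 78.99, 79.84 and 80.45% on X and 51.27, 60.35 and 64.10% on the autosomes. The groups did not overlap. X averaged 79.76% ± 0.731 (SD, n = 3) and the autosomes 58.57% ± 6.60, a difference of 21.2 points ± 5.87 (exact permutation p = 0.25). Without replicate 1 the difference was 17.9 points.

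Members also ranked somewhat stronger among all regions of a list than autosomal peaks outside promoters. The median rank, as a percentile where low is strong, was 47.93, 50.48 and 47.40 for X and 61.85, 53.39 and 56.02 for autosomes in replicates 1, 2 and 3. The mean difference was -8.48 ± 5.51 (SD, n = 3; exact permutation p = 0.25), and -5.76 without replicate 1.

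**Figure D2:**
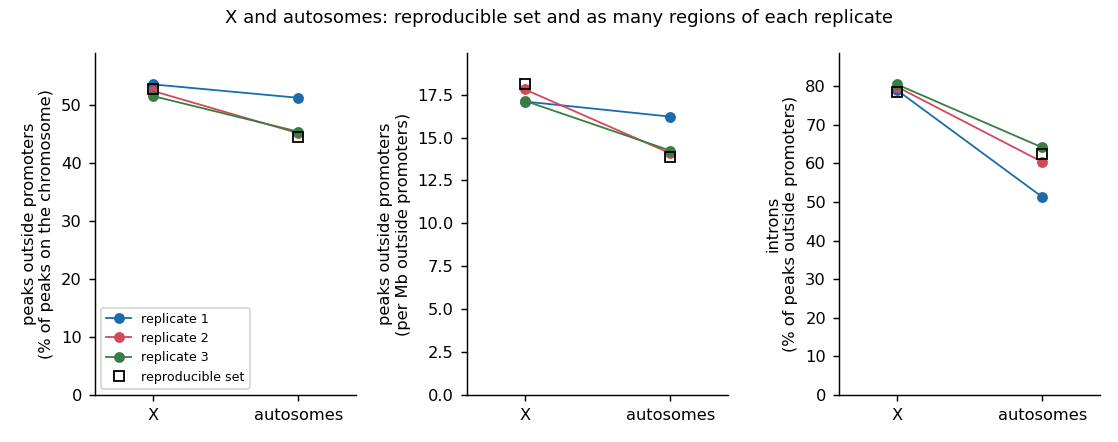
Share of peaks outside promoters (% of peaks), density of peaks outside promoters (per Mb) and share of those in introns (%) for X and the autosomes. Lines join the values of 1 replicate and open squares give the reproducible set, and X lies above the autosomes in each replicate in all 3 panels.

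Most members lay a few kilobases from the nearest gene start. The median distance from the nearest protein-coding TSS was 2436 bp (quartiles 1243 and 6090 bp), against 2963 bp for autosomal peaks outside promoters. A distance of 501 to 2000 bp was found for 165 members, a longer one of up to 10000 bp for 159, and more for 54, up to 42326 bp. With respect to the direction of the nearest gene, 143 members (37.8%) lay upstream of its TSS, against 43.7% on the autosomes.

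Along the chromosome the members were spread unevenly. Bins of 1 Mb held a median of 15.5 members, with 35 in the bin from 3 to 4 Mb, and the last 3 bins held 8 in all. Of the members, 2 had their summit in an annotated transposable element. Summits in bases that RefSeq marks as repeats made up 16.7% of the members, against 21.0% of X bases and 17.0% of autosomal peaks outside promoters.

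Long genes held most of the members. Of the 378 summits, 306 lay inside 179 protein-coding genes, which is 8.15% of the 2196 protein-coding genes on X. The median length of these 179 genes was 19454 bp, against 2521 bp for all protein-coding genes on X. When the X genes were divided by length into 4 equal classes of 549, a member lay in 1, 5, 19 and 154 genes from the shortest to the longest class. The rule bars summits within 500 bp of a TSS, so genes of the shortest class, 251 to 1316 bp long, had little or no room for a member. Longer genes have more bases open to one, and the part of this in the counts was not tested. A single member was found in 114 genes, 2 in 35, 3 in 16 and 4 or more in 14.

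The most members were in CG1677, with 13 in 124709 bp, followed by Hr4 and Raf with 10 each, kirre with 9, CHES-1-like with 8, and NFAT and Tlk with 7 each. None of the 13 in CG1677 had its own TSS as the nearest. The nearest was that of brk, unc-119, CBP, CG42780, Dok or Atg5, and all 13 also lay inside lncRNA:CR44357. Single genes differed in both count and length, and the part of length in the counts was not tested. CHES-1-like, which encodes a forkhead transcription factor, spans 27048 bp and held 8, while Ten-a, which encodes the cell-surface protein teneurin, spans 291517 bp and held 4. Non-coding genes held 40 members, including the strongest.

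Several members were gathered in runs. Another member lay within 5 kb of 162 members (42.9%, 38.0 to 47.9%), against 35.7% (33.1 to 38.2%) for autosomal peaks outside promoters and their own kind. In replicates 1, 2 and 3 the share was 33.9, 42.7 and 45.0% on X and 31.7, 34.3 and 38.2% on the autosomes. The mean difference was 5.80 points ± 3.22 (SD, n = 3; exact permutation p = 0.25), and 7.60 points without replicate 1. The density of peaks per Mb, given above, was higher on X as well, and its part in this difference was not tested. Members whose regions overlapped, such as pairs in Tlk, egh, schlank and rg, were counted as separate neighbours here and in the runs below.

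Runs of at least 4 members with gaps of at most 5 kb numbered 9 and held 46 members. The longest run by count was in Raf, where 8 summits lay within 10293 bp, 7 in introns and 1 in the 5′ UTR. Their signals, along the chromosome, were 408.7, 252.7, 819.3, 159.7, 364.2, 289.0, 387.9 and 126.3. The third summit was the strongest, and 7 of the 8 were found in all 3 replicates, with median ranks of 382.5, 508.5 and 496 in replicates 1, 2 and 3.

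CHES-1-like had 7 summits within 12512 bp, 6 of them in its introns, with signals of 258.0, 374.9, 135.8, 97.99, 240.9, 233.9 and 108.1. Of these, 5 were found in all 3 replicates. Hr4 had 6 intronic summits within 9351 bp, with signals from 138 to 496.2, and all 6 were found in all 3 replicates.

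The run at lncRNA:Vinr held 5 summits within 4536 bp, with signals of 1403, 1073, 235.1, 91.28 and 195.0. The signal fell from the first to the third, and the fourth, at rank 3667, was found among the strongest regions of no replicate. In NFAT, 4 summits within 3711 bp had signals of 785.2, 470.8, 128.9 and 104.3, and 2 of the 4 were found in all 3 replicates. The remaining runs, of 4 summits each, lay in Mnt, which encodes a partner protein of Max that opposes Myc, in Zdhhc8, an acyltransferase that attaches palmitate to proteins, and at 2 places in CG1677. In these 4 runs the strongest summit ranked 968, 1409, 752 and 622. In Mnt 2 of the 4 summits were found in all 3 replicates, in Zdhhc8 1, and in the runs of CG1677 1 and 3. The nearest protein-coding TSS was that of brk in the first run of CG1677, and that of CBP or CG42780 in the second. In the first of these, the regions of the last 2 summits overlapped.

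**Figure D3:**
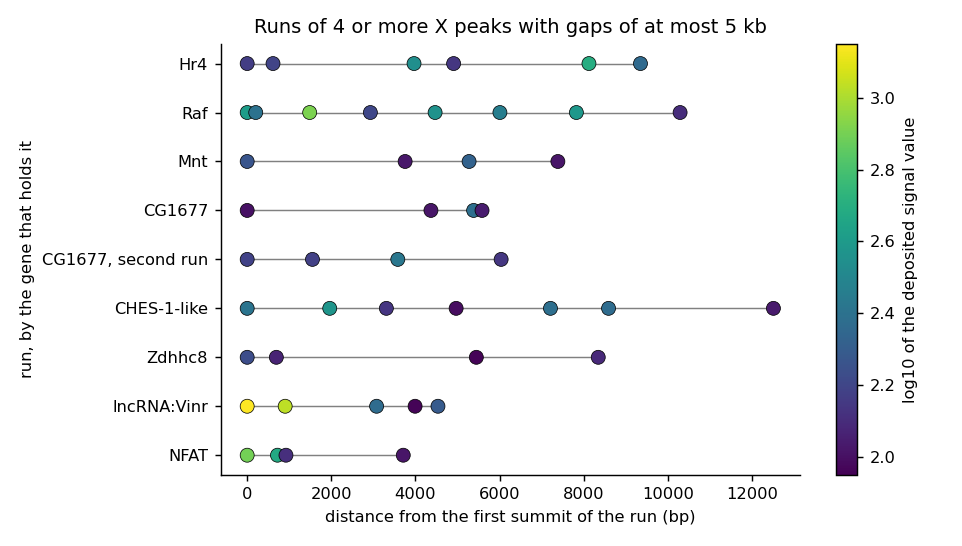
Position of each summit, as distance in bp from the first summit of its run, for the 9 runs of at least 4 X peaks outside promoters with gaps of at most 5 kb. Colour gives log10 of the deposited signal, and the brightest points are in the runs at lncRNA:Vinr, Raf and NFAT.

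Gene groups on X differed in how many of their genes held a member, and also in gene length. Among transcription factor genes, 11 of 31 did (35.5%, median length 18539 bp), with Hr4 (rank 151), CHES-1-like (rank 300), Myc, the growth regulator (rank 953), and Mnt (rank 968) the strongest. Neuronal excitability and synapse genes had a higher share, with 7 of 16 (43.8%, median length 51176 bp). These included norpA (rank 82), the cAMP phosphodiesterase dnc (rank 918), the receptor phosphatase Ptp10D (rank 1235) and the synaptic scaffold dlg1 (rank 1980). The background over all X genes was 8.15%, with a median length of 2521 bp, and the part of gene length in these shares was not tested. Long genes without any member were found in the same list: the potassium channel Sh spans 138941 bp, the acetylcholine receptor subunit nAChRalpha3 spans 90970 bp and the sodium channel para spans 78070 bp.

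Signalling genes held members in 5 of 20 cases (25%, median length 7266.5 bp), against the background of 8.15%. Beside Raf at rank 48 these were the receptor N at rank 379, the BMP antagonist sog at rank 755, the kinase sgg at rank 1655 and the small GTPase Rala at rank 2722. Cytoskeleton and muscle genes did so in 3 of 8 cases (37.5%, median length 12978 bp). They were the actin-bundling genes Fim (rank 2175) and sn (rank 2232) and the phosphatase subunit flw (rank 2941). The ranks of these 3 lay in the weaker part of the set. Of all X genes in the longest of the 4 length classes, 6196 to 394149 bp, 28.1% held a member. The part of gene length in the shares of the signalling and cytoskeleton lists was not tested.

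Genes of sex determination and dosage compensation were at or near the background. Of 9 such genes, 1 held a member (11.1%): Sxl, the master switch of female development, with an intronic summit of rank 2495 and a signal of 120 that was found among the strongest regions of 1 replicate. No member lay in or within 500 bp of roX1, roX2 or CG9609. The nearest peak of any kind to roX1 lay 5940 bp away at rank 630. At roX2 and at CG9609 itself, peaks at protein-coding promoters lay 60 and 193 bp from the gene, at ranks 1671 and 2580. Among 8 chromatin genes found in the annotation, 1 held members (12.5%, median length 7305.5 bp). It was the Polycomb gene ph-p, whose stronger member had rank 1224.

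The DNA under the members was poor in G and C at the summit. Mean GC content within 50 bp of the summit was 35.5% ± 7.71 (SD over 378 peaks), against 43.1% in windows centred 300 bp to either side, and it was lower at the summit in 294 members (77.8%). Autosomal peaks outside promoters had nearly the same values, 35.9 and 43.9%. In X promoter peaks the summit was at 39.5% and the flanks at 44.3%, a fall of 4.79 points where members showed 7.58.

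The fall was of similar depth in strong and weak members. It measured 7.65, 7.39 and 7.69 points in the strongest, middle and weakest 126. The commonest width, 390 bp, was that of 300 members, and 302 had the summit at the exact centre of the region. In these 300 members the fall was 7.60 points, and in the 78 of other widths 7.49 points. In windows of 51 bp, GC content was 35.02% at the summit, 42.74 and 44.30% at 250 bp to either side, and 40.37 and 41.37% at 1000 bp, so that shoulders of higher GC content stood on both sides of the low centre.

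In the replicates, the fall in GC content was 4.90, 7.28 and 8.20 points among the strongest X regions outside promoters, a mean of 6.79 ± 1.70 (SD, n = 3) and 7.74 without replicate 1. The weakest regions of the same lists had the opposite sign, with -4.50, -2.89 and -2.08 points, a mean of -3.16 ± 1.23 (SD, n = 3; exact permutation p = 0.25 for strongest against weakest) and -2.49 without replicate 1. GC content at the summit was 38.50, 35.68 and 34.73% on X and 42.87, 36.13 and 35.62% on the autosomes in replicates 1, 2 and 3. The mean difference of -1.90 points ± 2.14 (SD, n = 3; exact permutation p = 0.25) was largest in replicate 1 and was -0.670 points without it. With the strongest 50% of each list it was 0.0652 points.

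**Figure D4:**
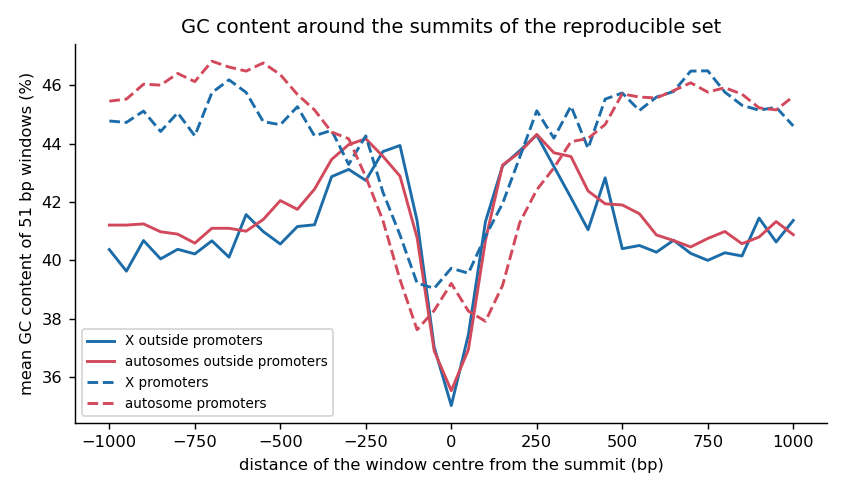
Mean GC content (%) of 51 bp windows against distance in bp from the summit, for X and autosomal peaks outside promoters (solid) and at promoters (dashed) in the reproducible set. The X line outside promoters falls to 35.02% at the summit, nearly on top of the autosomal line at 35.53%, and both lie below the promoter lines at the summit.

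ATCGATAG and TATCGATA, words that mark promoter peaks, were rare in the members, while those of A and T alone were not. Of the 10 words of 8 letters chosen in autosomal promoter peaks, at least 1 was in 49 members (13.0%), in 11.3% of autosomal peaks outside promoters and in 21.9% of X promoter peaks. The leading word ATCGATAG overlaps the DNA replication-related element (DRE), TATCGATA, the site of the factor DREF, in 7 letters. Words and motifs were searched on both strands within 50 bp of the summit, and a match is a description of letters only. Over the whole reproducible set 3.31% of peaks held ATCGATAG, against 6.21% of X promoter peaks, 0.265% of members, which is 1 of 378, and 0.265% of the members' flank windows. The DRE was in 1 member and in 5.03% of X promoter peaks. In the strongest regions of the replicates it was in 0.459% ± 0.155 of X regions outside promoters and 5.70% ± 1.06 at X promoters (SD, n = 3; exact permutation p = 0.25).

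Among the strongest regions of replicates 1, 2 and 3, ATCGATAG was in 0.280, 0.538 and 0.279% of X regions outside promoters and in 0.253, 0.364 and 0.216% of the autosomal ones. The mean difference was 0.0877 points ± 0.0762 (SD, n = 3; exact permutation p = 0.25), and it changed sign with a promoter window of 1000 bp, to -0.0599 points. Without replicate 2 it was 0.0450 points.

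The word CAACACTG was in no member, which allows a share of up to 0.794% (3 counts of 378), and in 5.03% of X promoter peaks. Motif 1, GGTCACAC, a core promoter element bound by the protein M1BP, was in 1 member and in 3.85% of X promoter peaks. Promoter words made of A and T alone were in more members than flank windows: TTAAAAAA was in 21 members (5.56%), against 2.65% of their flank windows and 2.96% of X promoter peaks. ATTTAAAA was in 5.29% of members, 2.12% of flank windows and 2.96% of X promoter peaks, and TTTAAAAA was in 4.23, 2.51 and 3.85%. Over the whole reproducible set the shares of TTAAAAAA, ATTTAAAA and TTTAAAAA were 4.75, 4.86 and 4.83%. In autosomal promoter peaks, where these words were chosen, they were 5.71, 5.59 and 5.71%. In the replicates, X regions outside promoters differed from X promoters by 1.35, 1.42 and -0.532 points on average (exact permutation p = 0.25, 0.50 and 0.75).

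The CTCF letters AGGTGGCG, of which 4 examples are printed above, were in 10 members (2.65%, 1.44 to 4.80%), against 0.265% of the flank windows. In the whole reproducible set 1.25% of peaks held them, and the share was 1.26% for autosomal peaks outside promoters and 0.888% at X promoters. In the strongest regions of the replicates, the letters were in 2.29% ± 0.640 of X regions outside promoters and 0.513% ± 0.189 at X promoters (SD, n = 3; exact permutation p = 0.25). The 10 members ranked from 584 to 3719, none among the 100 strongest, and 5 were found in all 3 replicates. Introns held 5 of the 10, and 3 were between genes, 1 in an exon of the non-coding gene lncRNA:CR43838 and 1 in a 3′ UTR of Hr4.

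Repeats were rarer at the summit than beside it. GAGAG, the letters of the GAGA factor's site, was in 36 members (9.52%) and in 19.0% of flank windows, CACACACA was in 2.12 and 6.88%, and GAGAGAGA, which contains GAGAG, was in 0.265 and 1.85%. Among X promoter peaks the values for GAGAG were 9.47 and 17.8%, much as in the members. The E-box CACGTG was in no member, against 1.59% of flank windows. The TATA letters TATAAA were in 14.3% of members and 10.6% of flank windows, and the GATA letters AGATAAG in 1.59 and 0.661%. The Pho letters GCCAT were in 14.8 and 16.9%, the Zelda motif CAGGTAG in 1.06 and 0.794%, and the AP-1 motif TGACTCA in 1.32 and 1.19%. The CRE letters TGACGTCA were in no member and no flank window. Over the whole set, summit windows held TATAAA in 15.1%, AGATAAG in 1.52%, GCCAT in 15.8%, CAGGTAG in 0.454% and TGACTCA in 1.07% of peaks.

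**Figure D5:**
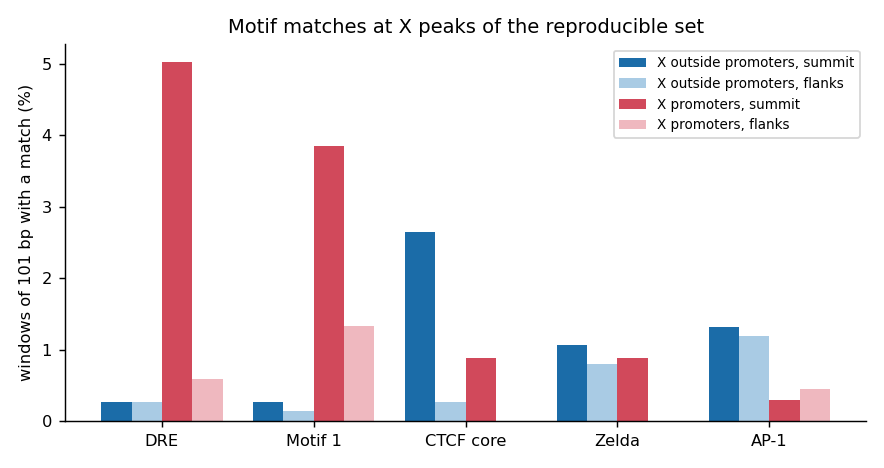
Share (%) of 101 bp windows that hold each of 5 motifs, at the summit and in the flanks, for X peaks outside promoters and at promoters in the reproducible set. DRE and Motif 1 bars are tall only at X promoter summits, and the CTCF core bar is tallest at summits outside promoters, at 2.65%.

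Words chosen in the members themselves repeated unevenly between odd- and even-ranked members. The 10 words of 7 letters with the most excess over the flanks were chosen in the 189 odd-ranked members and then counted in the 189 even-ranked ones. There, 6 were in more summit than flank windows and 4 in fewer. The leading word, AAATTAA, was in 27 odd-ranked members against 10 flank windows, and in 9 even-ranked members against 12.5. AAATCTA, the word that kept the widest margin, was in 14 odd-ranked members against 2.5 flank windows and in 10 even-ranked members against 2, where flank counts are the mean of both sides. It was picked from the 10 after the even-ranked counts were seen, so those counts are no separate check of it.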

How the data were processed

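The deposited files were peak lists of CG9609-GFP ChIP-seq in embryos, with 1 list of peaks and background regions per replicate and 1 set thresholded by the authors on the irreproducible discovery rate, which scores the repeatability of peak ranks. The signal value of each region was deposited by the authors. For its scale, and for the aligner, peak caller and thresholds, nothing is given in the sources used here. The dm6 lists were used, and the dm3 and pooled lists were not used here. Signal ranked regions within a list, and lists were compared only by rank. Read depth is unknown, so precision was taken from numbers of peaks, as 95% Wilson intervals, and from the spread over 3 replicates.

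Summits were the region start plus the deposited offset, in dm6 counted from 1. Genes came from Ensembl release 115 and sequence from RefSeq, both of the dm6 assembly. Where annotations overlapped, coding exons took precedence, then the 5′ UTR, the 3′ UTR, non-coding exons and introns, and introns of non-coding genes counted as introns. Replicates were compared by their strongest regions, as many as the reproducible set has, with exact two-sided sign-flip tests over 3 replicates in 6 main comparisons, plus neighbours, GC content and motifs. In the 6 comparisons, neighbours and GC content every p was the smallest possible, and over 22 motifs and words, of which 13 reached it, p ran up to 1.00. None was adjusted. Summits within 100 bp were called shared. GC content and 13 motifs were read within 50 bp of the summit and in flanks 300 bp away. X genes of 6 lists were counted when a member lay inside them.

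Named genes were those of the 25 strongest members, of every run of 4 or more members with gaps of at most 5 kb, roX1, roX2 and CG9609, and up to 4 genes per list. Genes named for their length or member count, Rala, the long genes without a member, and the CTCF examples were picked after their values were seen. The members and lists were chosen with earlier results of these data known. Promoter calls, motif counts, neighbour counts and the sign-flip test were tested on simulated data, where all simulated summits were placed correctly. The alternatives tried were a promoter window of 250 or 1000 bp, the TSSs of every gene type, the strongest 50% of each list, 2 times as many regions, other sequence windows, other distances and each replicate left out. Leaving out replicates for neighbours and the fall in GC content was added after seeing the data. Python 3.11.15, numpy 2.4.6, pandas 2.3.3 and scipy 1.17.1 were used.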

Additional observations from a re-analysis of the deposited data

How the results depend on the processing

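Of 51 alternatives of the 6 comparisons between X and autosomes, 47 kept the direction and 4 reversed it. With 2 times as many regions of each replicate, the share outside promoters differed by -0.450 points and the density ratio was 0.939. The leading word's share differed by -0.0599 points with a promoter window of 1000 bp, against 0.0877 points as reported over the replicates, where the reproducible set itself gave -0.106. The GC difference was 0.0652 points with the strongest 50% of each list. The cause of these reversals was not tested. Other alternatives moved values upwards: the share difference was 8.35 points with a promoter window of 250 bp and 11 points with the strongest 50% of each list, where the density ratio was 1.42. The leading word's difference was 0.299 points at 250 bp, 0.302 points with the strongest 50%, and 0.134 and 0.154 points within 25 and 100 bp of the summit. The GC difference was -3.20 points with 2 times as many regions and -1.25 points within 100 bp of the summit. The intron share and the median rank kept their direction under every alternative run, from 17.9 to 23.6 points and from -11.3 to -5.76. Leaving out 1 replicate moved the GC difference between -2.63 and -0.670 points, the leading word's difference between 0.0450 and 0.118 points, and the difference in neighbours between 4.50 and 7.60 points.

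The share of members found in all replicates was 45.2% for summits within 50 bp, 63.8% within 250 bp, 89.2% in the whole lists and 64.3 to 71.2% when only 2 replicates had to hold the summit. Over all peaks of the set, the share in the whole lists was 87.2%. The share with another member was 26.2% within 2 kb and 55.0% within 10 kb.

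Shares of members rest on up to 378 peaks that are not independent, and rare motifs on 10 or fewer. The lists give no read depth, and the X to autosome copy number in the pooled sexes was not measured.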
